A study of Homo sapiens with 11 samples.

Results

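The comparison set H1299 cells carrying mutant p53 R273H against H1299 cells carrying mutant p53 R175H, both on the P72 form of p53, and it covers 7 of the 11 libraries of the series. H1299 is a human lung carcinoma line that lacks p53, so the constructs are its only source of the protein. Libraries were taken by their labels: R273H P72 replicates 1, 2, 3 and 4, and R175H P72 replicates 1, 2 and 4. In every group, cells had received 5 µg of construct DNA and 14 days of selection in neomycin at 800 µg per ml, and no group without a p53 construct was analysed here. The other 4 libraries, 3 of R175H on the R72 form and 1 of R273H on R72, entered the fit for the spread and the batch and are quoted where they bear on a result. The labels put R273H P72 replicates 2, 3 and 4 and R175H R72 replicate 1 in batch b1, and the other 7 libraries in batch b2. Nothing in the labels ties a replicate to a culture or a selected line of its own, and the p-values measure only the spread among libraries, part or all of which may be technical.

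p53 is a transcription factor that halts the cell cycle or starts cell death after DNA damage. R175 and R273 are among the residues most often mutated in human cancers: R175H disturbs the fold of the DNA-binding domain, while R273H removes a side chain that touches DNA and leaves the fold largely in place. Position 72 lies outside that domain, in a proline-rich stretch, where human p53 has either proline or arginine. The comparison asked which transcripts differ between cells with a mutant of each kind when position 72 is proline.

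Messenger RNA was read by 3′ tag sequencing, in which a transcript gives reads near its 3′ end. Levels of single genes are given as CPM, counts set on a common library total after TMM scaling. Sums over a list of genes were set on the library totals without that scaling. The 7 P72 libraries held 8661662 to 12829560 estimated counts and 19685 to 20489 genes with a count. R273H P72 replicate 1, the only library of its group in batch b2, lay nearest to the R273H R72 library (root mean square difference 0.250 in log2 CPM over 8968 genes) and at best 0.307 from its own group. R175H R72 replicate 1, the only R175H library in batch b1, lay nearest to R175H P72 replicate 1 (0.270) and at best 0.319 from its own group. R175H R72 replicates 2 and 4 also lay nearest to a library of another group (0.231 and 0.268), with 0.273 between them. Per 10 percentage points of GC content, log2 CPM changed by -0.0561 in R273H P72 replicate 1, by 0.0433 to 0.0591 in replicates 2, 3 and 4 and by 0.00495 to 0.0260 in R175H P72. The R72 libraries of batch b2 lay at -0.0855, -0.0521 and -0.0809, so within batch b2 the GC trend divided R175H P72 from the other libraries, R273H P72 replicate 1 included. The labels do not say whether batch b2 was prepared as 1 set, and a difference in preparation along this line cannot be told apart from the hotspot there.

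**Figure D1:**
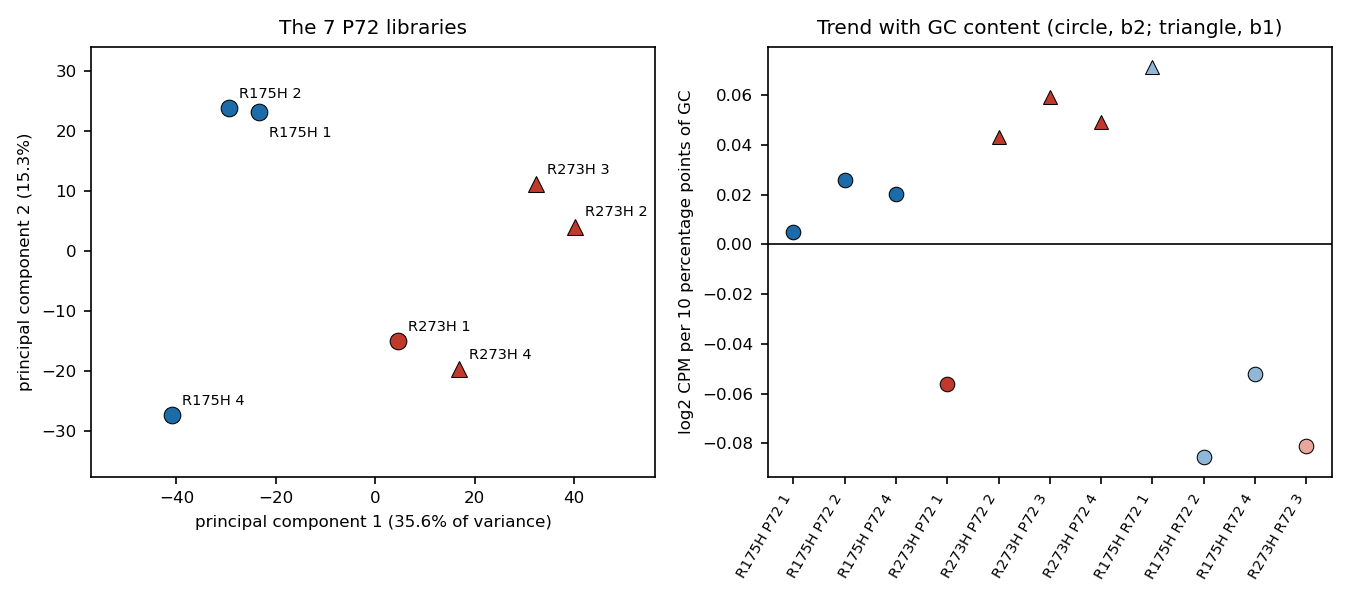
Left, the 7 P72 libraries on the first and second principal components of log2 CPM (35.6% and 15.3% of the variance); right, for all 11 libraries, how steeply log2 CPM changed with the GC content of the 3′ end, in log2 units per 10 percentage points. Circles are batch b2 and triangles batch b1. R175H P72 libraries lie at -40.9 to -23.4 on the first component, R273H P72 replicate 1 at 4.59 and the other R273H P72 libraries at 16.8 to 40.1.

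Markers of neuroendocrine and neural cells summed to 1482 to 1554 CPM in R175H P72 and 1423 to 1493 CPM in R273H P72, with 3 of 12 at 0 in all 7 libraries. Of the 6 tested, 1 was called higher and 1 lower (33.3% called, against 14.6% of all genes tested, median -0.08). SYP, the synaptic vesicle protein synaptophysin, was higher (1.42 to 1.92 against 2.46 to 4.20 CPM, log2 1.39, SE 0.33), a call lost without R273H P72 replicate 1 (edgeR adjusted p = 0.120), and CALB2, the gene of calretinin, was lower (17.8 to 19.4 against 7.96 to 11.1 CPM). The 7 other marker lists each summed to at most 20.4 CPM, with 1 call among them. It was NPHS1, a kidney marker and the only tested member of its list (100% called). NPHS1 was higher (1.92 to 2.90 against 3.75 to 5.81 CPM, log2 1.16, SE 0.36), a call lost without R175H R72 replicate 1 (edgeR adjusted p = 0.208). Of these 7 lists, fibroblast markers were at 6.78 to 9.95 CPM against 9.58 to 14.1 CPM. Leukocyte markers were at 9.58 to 20.4 CPM against 8.65 to 15.9 CPM, and erythroid markers at 6.67 to 9.19 CPM against 8.72 to 10.97 CPM. In bulk libraries fewer cells of a type and less RNA per cell cannot be told apart.

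Over all 11 libraries with batch as a term, 1135 of 16324 genes tested were higher in R273H P72 than in R175H P72 (6.95%) and 1241 were lower (7.6%), 2376 in all (14.6%), at an adjusted p under 0.05 in edgeR's quasi-likelihood test. Most changes were small: 156 of the higher and 98 of the lower genes changed by at least 2-fold, and 1315 changed by less than 1.5-fold. In batch b2 alone, with 1 R273H library against 3 R175H libraries, 419 genes were higher (2.6%) and 447 lower (2.78%), 866 in all (5.38%), and with the GC trend removed there 306 and 339. Both fits called 404 genes higher (2.47%) and 435 lower (2.66%); the libraries of batch b2 are part of the fit over all libraries, so a call in batch b2 too is no independent repeat. The 4 R273H and 3 R175H libraries did not overlap for 2285 genes in the higher direction (14%) and 2294 in the lower (14.1%). Genes that met all of these criteria numbered 302 higher (1.85%) and 385 lower (2.36%), 687 in all. Without R273H P72 replicate 1 the number of higher calls was 544, and without R175H R72 replicate 1 the number of lower calls was 612. For each gene list the share of tested members called in either direction is printed, to be read against the 14.6% of all genes.

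The genes most raised in R273H P72 encode secreted and surface proteins and mitochondrial transcripts. CYR61 (ENSG00000142871, hg38 chromosome 1, 85580761 to 85583962), which encodes a secreted matricellular protein, was at 725, 434 and 704 CPM in R175H P72 and at 1826, 1052, 853 and 975 CPM in R273H P72. All R273H P72 values lay above all R175H P72 values, and replicate 1 was the highest. The fitted change was 3.51-fold (log2 1.81, SE 0.28, edgeR adjusted p = 0.00651), of which a batch term of -1.26 for b1 is a part. Without the batch term the log2 difference was 0.92 (edgeR adjusted p = 0.238), and in batch b2 alone it was 1.56. ADM, the gene of the vasodilator peptide adrenomedullin, was at 18.9, 12.6 and 14.01 CPM in R175H P72 and at 33.4, 43.6, 38.3 and 25.6 CPM in R273H P72 (log2 1.40, SE 0.30, edgeR adjusted p = 0.0119). Its groups did not overlap, and its call was lost without R175H P72 replicate 4 (edgeR adjusted p = 0.0639). TMEM2, a membrane protein linked to hyaluronan breakdown, was at 8.60 to 15.02 CPM against 19.2 to 28.6 CPM (log2 1.36, SE 0.20).

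NEO1 (ENSG00000067141, hg38 chromosome 15, 73051710 to 73305206) encodes neogenin, a receptor for netrins and repulsive guidance molecules. Its level was 11.99, 9.37 and 12.7 CPM in R175H P72 and 27.3, 24.6, 24.9 and 28.3 CPM in R273H P72. The 4 R273H P72 libraries lay close together, well above the R175H P72 values (log2 1.26, SE 0.16, edgeR adjusted p = 5.27e-05). The R72 libraries had the same order, with 12.7, 14.4 and 11.9 CPM in R175H and 32.3 CPM in the 1 R273H library (log2 1.29, SE 0.18, edgeR adjusted p = 0.00265). Of 30 tested guidance genes, 5 were called higher and 0 lower (16.7% called, near the share of all genes, median 0.27). Besides NEO1 these were EFNB2, EFNA5, SEMA3C and RGMB, at log2 0.56 to 0.75 and called in batch b2 in 0 cases. The calls of EFNA5, SEMA3C and RGMB were lost without R273H P72 replicate 1 (edgeR adjusted p = 0.157 to 0.261), those of EFNB2 and EFNA5 without R175H R72 replicate 1 (edgeR adjusted p = 0.0817 and 0.0920) and those of EFNA5, SEMA3C and RGMB without the batch term (edgeR adjusted p = 0.196 to 0.999). The counts of guidance genes higher and lower were 2 and 0 without R273H P72 replicate 1, 3 and 0 without R175H R72 replicate 1 and 4 and 0 without the batch term.

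EMP2, a tetraspan membrane protein, was at 12.5 to 15.4 CPM in R175H P72 and 26.04 to 29.6 CPM in R273H P72 (log2 1.15, SE 0.15, edgeR adjusted p = 5.73e-05). LRP8, a receptor for apolipoprotein E and reelin, was at 82.6 to 109.7 CPM against 182 to 243 CPM (log2 1.14, SE 0.22). SLC6A6, the taurine transporter, was at 13.8 to 21.02 CPM against 23.04 to 38.1 CPM (log2 1.05, SE 0.17). The groups did not overlap for these 3 genes or for BRI3BP, at 37.8 to 45.9 CPM against 63.8 to 81.3 CPM (log2 1.06, SE 0.11).

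Among the lowest genes, HBD (ENSG00000223609, hg38 chromosome 11, 5232678 to 5243657), the gene of the delta chain of haemoglobin, had the smallest p. Its level was 649, 671 and 656 CPM in R175H P72 and 232, 322, 295 and 299 CPM in R273H P72. The groups lay far apart, with a 2.94-fold difference (log2 -1.56, SE 0.09, edgeR adjusted p = 1.30e-09), and it was called in every alternative fit. On R72 HBD was at 705, 477 and 495 CPM in R175H and 269 CPM in R273H (log2 -0.88, SE 0.12, edgeR adjusted p = 0.00262). Of 11 globin genes, 5 were at 0 in all 7 P72 libraries and 3 passed the filter on low counts. Of these 3, 1 was called higher and 2 lower (100% called). Erythroid markers, with the globin genes HBA1, HBA2 and HBB among them, summed to at most 10.97 CPM in the P72 libraries. The labels do not say what 3′ end the constructs carry, and the origin of the HBD reads was not tested. HBQ1, the theta globin gene, was at 20.9 to 24.5 CPM against 14.2 to 19.96 CPM (log2 -0.63, SE 0.15, edgeR adjusted p = 0.00558), a call lost without the batch term (edgeR adjusted p = 0.141), with the GC trend removed (edgeR adjusted p = 0.221) and without R273H P72 replicate 1 (edgeR adjusted p = 0.111). HBE1, the epsilon globin gene, at 0 to 0.202 CPM against 0.846 to 2.08 CPM, was called higher but passed in 2 of 10 fits that left out 1 library.

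Genes of the cytoskeleton and of calcium and membrane signalling were also among the lowest. PDLIM7 (ENSG00000196923, hg38 chromosome 5, 177483394 to 177497606), an adaptor with PDZ and LIM domains, was at 31.1, 31.1 and 32.4 CPM in R175H P72 and at 15.1, 15.8, 17.5 and 17.2 CPM in R273H P72 (log2 -1.22, SE 0.14, edgeR adjusted p = 1.96e-05). CALB2, the gene of the calcium-binding protein calretinin, was at 17.9, 19.4 and 17.8 CPM against 8.17, 11.1, 7.96 and 10.6 CPM (log2 -1.21, SE 0.17, edgeR adjusted p = 9.83e-05). Both genes had a narrow range within each group. NGEF, an exchange factor for small GTPases, was at 15.96 to 22.4 CPM against 8.31 to 10.9 CPM (log2 -1.15, SE 0.19). MGAT5B, a glycosyltransferase, was at 18.6 to 20.5 CPM against 9.41 to 9.94 CPM (log2 -1.27, SE 0.17).

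UPP1, the uridine phosphorylase that salvages uridine, was at 156, 201 and 161 CPM in R175H P72 and 80.3, 79.3, 104 and 78.5 CPM in R273H P72 (log2 -1.35, SE 0.21, edgeR adjusted p = 0.00324). RPL28, a protein of the large ribosomal subunit, had the largest fitted drop of the 12 lowest genes, from 118, 142 and 106 CPM to 36.5, 36.1, 61.7 and 44.6 CPM (log2 -2.34, SE 0.49, edgeR adjusted p = 0.0255). Its call was lost without R175H P72 replicate 1, R175H P72 replicate 2 or R175H R72 replicate 2 (edgeR adjusted p = 0.0554, 0.0727 and 0.0604), and without the batch term, where its log2 difference was -1.45 (edgeR adjusted p = 0.128). For both genes the R175H R72 libraries of batch b2 lay within or below the R273H P72 range, with UPP1 at 74.6 and 85.8 CPM and RPL28 at 26.8 and 18.8 CPM. The R175H R72 library of batch b1 lay below the R175H P72 range and well above R273H P72, with UPP1 at 144 CPM and RPL28 at 104 CPM.

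The same split of the R175H R72 libraries by batch was seen for CRIP2, a small LIM protein, at 70.8, 38.2 and 28.1 CPM in R175H R72 replicates 1, 2 and 4 (log2 -1.30, SE 0.23 on P72). COPE, a coat protein of transport vesicles, was at 28.01, 13.5 and 12.7 CPM (log2 -1.19, SE 0.16), and EEF1A2, a translation elongation factor, at 70.4, 36.3 and 30.5 CPM (log2 -1.21, SE 0.27). The EEF1A2 call was lost without R175H P72 replicate 2 or R175H R72 replicate 2 (edgeR adjusted p = 0.0639 and 0.0527). The remaining lowest genes were LRRC37B (log2 -1.24, SE 0.20), which has close copies, and SNORA79 (log2 -1.86, SE 0.34), a small nucleolar RNA whose call was lost without R273H P72 replicate 1 (edgeR adjusted p = 0.0597) or R175H R72 replicate 1 (edgeR adjusted p = 0.0507). The calls of CRIP2, COPE and EEF1A2 were lost without the batch term (edgeR adjusted p = 0.0844 to 0.130).

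**Figure D2:**
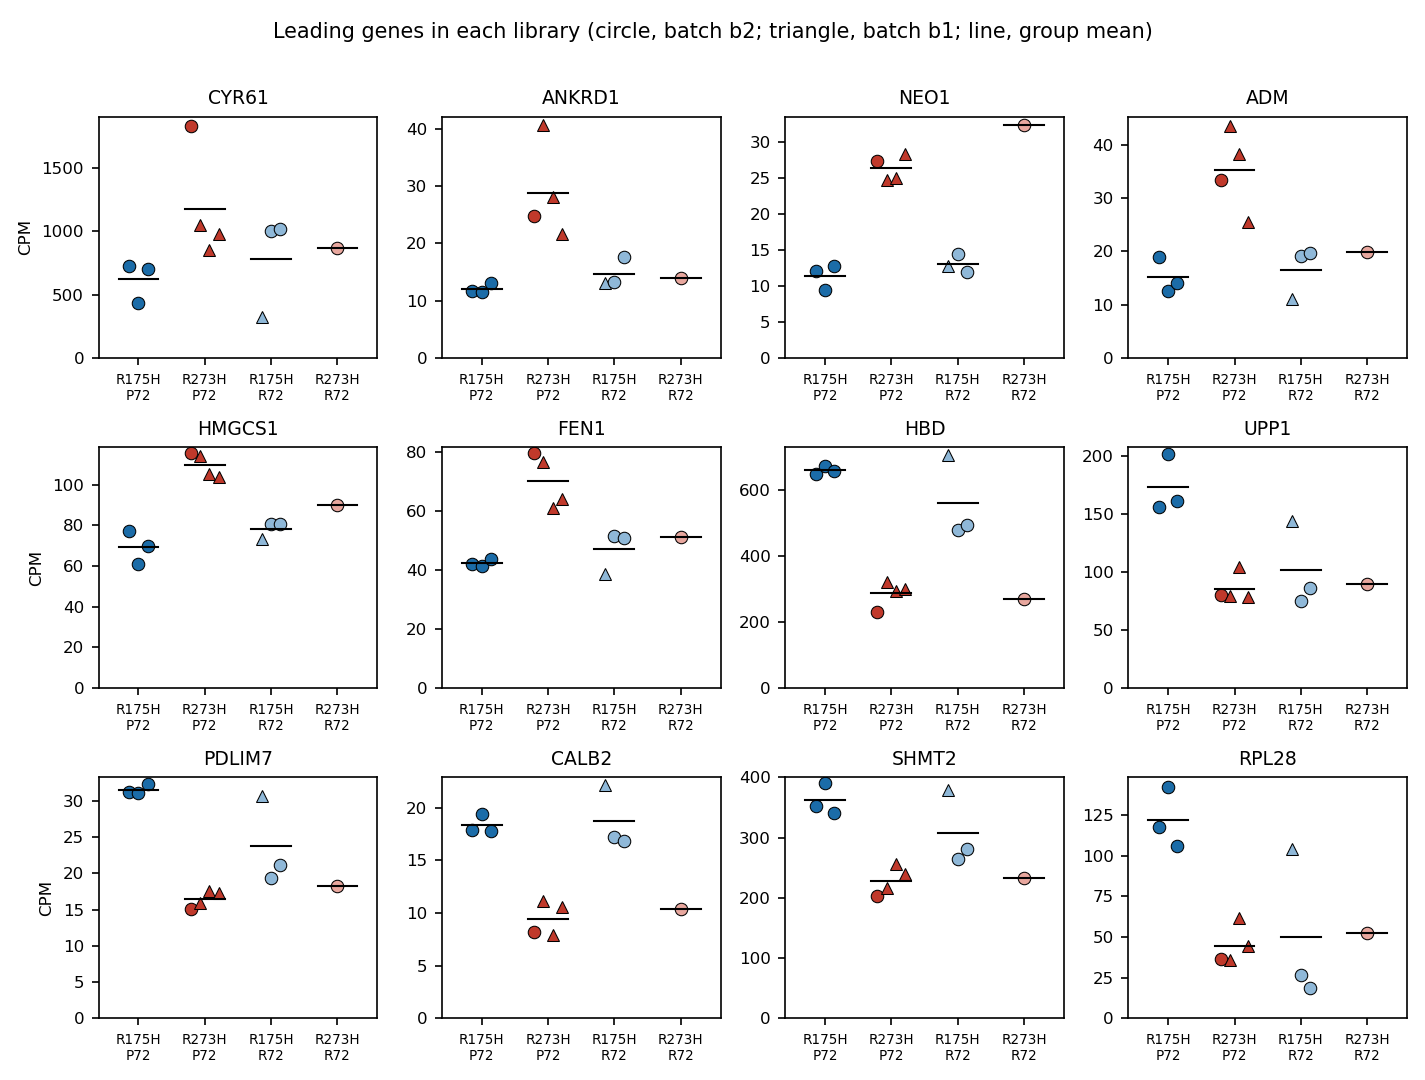
Levels in CPM (y axes) of 12 genes in each of the 11 libraries, by group on the x axes, with circles for batch b2, triangles for batch b1 and a line at the group mean. In the P72 groups all 4 R273H points lie on one side of all 3 R175H points for every gene shown. NEO1, HBD and CALB2 keep that order in the R72 groups, while the batch b2 points of R175H R72 for UPP1 and RPL28 lie within or below the R273H P72 range.

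The position of the R72 libraries was counted over the 687 genes. The fit that picked these genes used the R72 libraries for the batch term and the spread. R175H R72 replicate 1 in particular helped to set the batch term. The counts are therefore not independent of the choice of genes, and which mean was nearer was not counted over all genes tested. R175H R72 replicate 1 was nearer to the R273H P72 mean than to the R175H P72 mean for 47 of 302 higher and 34 of 385 lower genes. R175H R72 replicate 2 was nearer to the R273H P72 mean for 135 and 206 of them, replicate 4 for 133 and 244, and the R273H R72 library for 191 and 313. Genes of this kind separate R175H P72 from R175H R72 libraries of its own batch as well as from R273H P72, and the part of library preparation in this was not tested. All 5 R273H libraries lay on one side of all 6 R175H libraries for 92 of the 302 and 125 of the 385 genes, 217 in all. Over all genes tested this held for 378 higher (2.32%) and 413 lower (2.53%). The 687 genes were picked for no overlap among the P72 libraries, so their larger share was in part set by that choice. The 378 and 413 genes all lie within the 2285 and 2294 genes without overlap on P72. Leading genes divided in this way over all R273H and R175H libraries included ADM, TMEM2, NEO1, EMP2 and BRI3BP among the higher. Among the lower they included HBD, CALB2, PDLIM7, MGAT5B and NGEF.

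On R72 the hotspot comparison had 1 R273H library against 3 and called 1 gene higher (0.00613%) and 6 lower (0.0368%), 7 in all (0.0429%), while 754 reached an unadjusted p under 0.05. In batch b2 the P72 and R72 comparisons share no library. There 518 of the 687 genes (75.4%) had the same sign on R72, against 58.2% of 15952 genes. The 687 were picked by tests, 1 of them in the fit that used the R72 libraries for the batch term and the spread. The genes set beside them were not picked in this way, so the higher share is no independent repeat. NEO1, HBD and SPP1 were called on R72 in the same direction as on P72, and 0 of the 687 in the opposite one. SPP1, the gene of the secreted phosphoprotein osteopontin, was at 107 to 111 CPM in R175H P72 and 56.4 to 70.5 CPM in R273H P72 (log2 -0.59, SE 0.11), and at 97.8, 132 and 106 CPM against 67.3 CPM on R72 (log2 -0.81, SE 0.14, edgeR adjusted p = 0.0199). The R72 call passed in 6 of 11 alternative fits for SPP1, in 10 of 11 for NEO1 and in 9 of 11 for HBD. Of the 12 highest genes 10 had the same sign on R72 in batch b2, and of the 12 lowest 6. RPL28 was at log2 1.18, EEF1A2 at 0.53, LRRC37B at 0.49 and CRIP2 at 0.30 in the opposite direction.

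**Figure D3:**
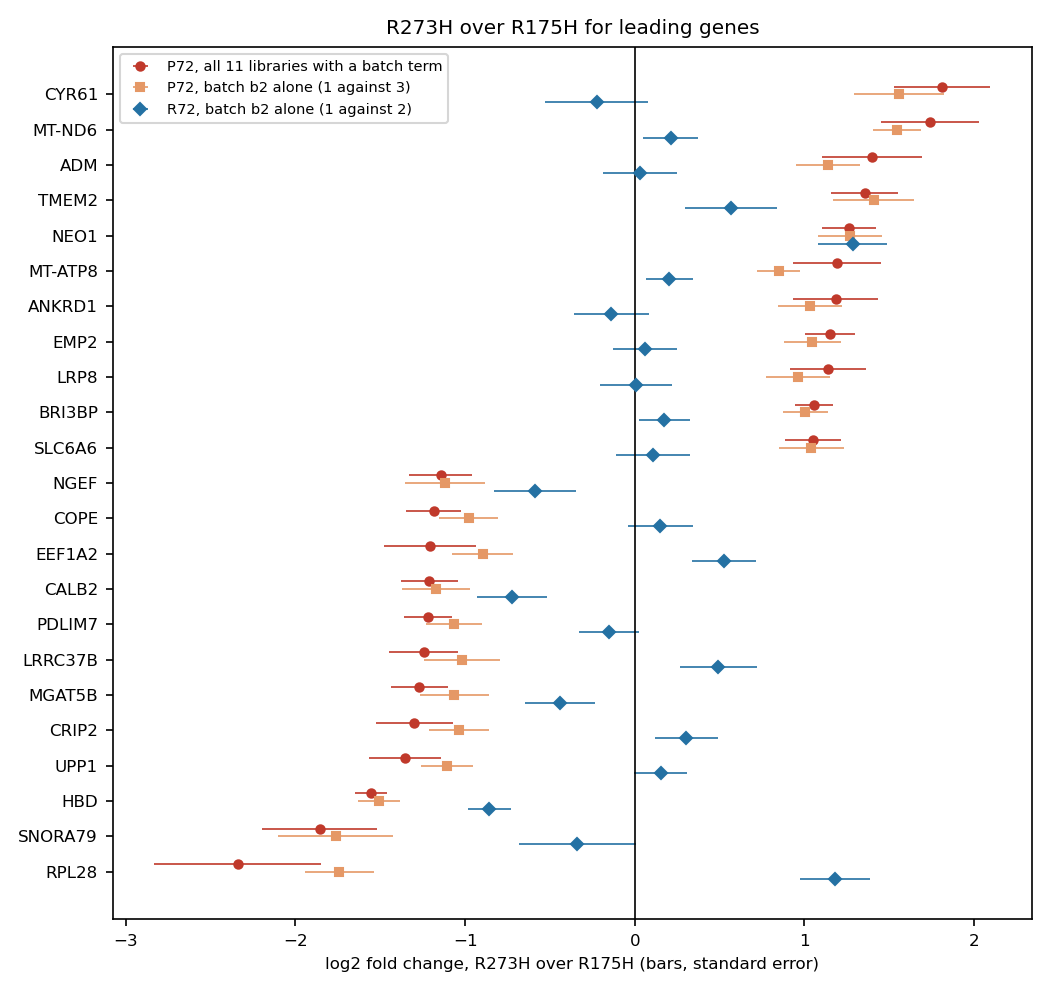
Log2 fold change of R273H over R175H (x axis, bars are standard errors) for leading genes on P72 (y axis), over all libraries with a batch term, on P72 in batch b2 alone and on R72 in batch b2 alone. NEO1 lies at 1.26, 1.27 and 1.28, and RPL28 at -2.34 and -1.74 on P72 and at 1.18 on R72.

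The test of the difference between the hotspot effects on R72 and on P72 passed for 2 genes in the higher direction (0.0123%) and 3 in the lower (0.0184%), 5 in all (0.0306%), and for 0 of the 24 leading genes; 1669 genes reached an unadjusted p under 0.05. TUBA1B, an alpha-tubulin, was at 933 to 1085 CPM in R175H P72 and at 1313 to 2046 CPM in R273H P72 (log2 1.00, SE 0.10), while on R72 it was at 876, 1132 and 1117 CPM against 1134 CPM (log2 -0.01, SE 0.13). SNHG25, a host gene of small nucleolar RNAs, was at 2251 to 2396 CPM against 1181 to 1699.9 CPM on P72 (log2 -1.04, SE 0.10). MAF1, a repressor of RNA polymerase III, was at 87.3 to 98.7 CPM against 49.5 to 70.6 CPM on P72 (log2 -0.98, SE 0.11). TRPM8 and SMIM11B were the others. Reads of TUBA1B and of SMIM11B may come from close copies of these genes. Without R175H R72 replicate 2 the test called 0 genes, and without R273H P72 replicate 1 it called 48.

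Genes of cholesterol synthesis were among those that rose in R273H P72. The pathway turns acetyl-CoA into mevalonate and then into sterols, and SREBP-2, the product of SREBF2, is the transcription factor that raises its enzymes when sterols run low. Of 24 tested members 12 rose and 0 fell (50% called), 6 of them in batch b2 too, and the median log2 fold change was 0.35 (0.29 in batch b2 alone), against 0.00 over all genes.

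Early and late steps of the pathway both held members that rose. HMGCS1, which makes HMG-CoA, was at 77.3, 61.00 and 69.6 CPM in R175H P72 and at 116, 114, 105 and 104 CPM in R273H P72 (log2 0.75, SE 0.11, edgeR adjusted p = 0.000103). EBP, a sterol isomerase, was at 76.9, 72.2 and 78.9 CPM against 119.7, 137, 120.2 and 122 CPM (log2 0.72, SE 0.10, edgeR adjusted p = 9.83e-05). SREBF2 itself was at 160.4, 144 and 157 CPM against 209, 220.3, 201 and 189.6 CPM (log2 0.45, SE 0.10, edgeR adjusted p = 0.00299). For HMGCS1, EBP and SREBF2 every R273H P72 library lay above every R175H P72 library. Others that rose included HSD17B7, SQLE, IDI1, DHCR7, MSMO1 and INSIG1, at log2 0.35 to 0.75. The calls of SREBF2, HSD17B7, IDI1, MSMO1 and INSIG1 were lost without R273H P72 replicate 1 (edgeR adjusted p = 0.0554 to 0.478), those of HSD17B7, SQLE, DHCR7, MSMO1 and INSIG1 without R175H R72 replicate 1 (edgeR adjusted p = 0.0623 to 0.221) and those of HSD17B7, IDI1 and MSMO1 without the batch term (edgeR adjusted p = 0.0502 to 0.918). The counts of members higher and lower were 6 and 0 without R273H P72 replicate 1, 5 and 0 without R175H R72 replicate 1 and 8 and 0 without the batch term. On R72 in batch b2, 12 of 24 members were above 0, with a median of 0.01.

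The letters TCACNCCAC of a sterol response element were searched on both strands from 250 bases before to 50 bases after the start of each gene in the RefSeq promoter table (GRCh38.p14). They were found for 1 of the 19 members with an entry, SREBF2, and in 1.13% of all 34961 promoters. The SREBF2 window, chr22:41832855-41833154 on the plus strand, is shown because SREBF2 rose together with enzymes of the pathway, and the capitals mark the match.
SREBF2: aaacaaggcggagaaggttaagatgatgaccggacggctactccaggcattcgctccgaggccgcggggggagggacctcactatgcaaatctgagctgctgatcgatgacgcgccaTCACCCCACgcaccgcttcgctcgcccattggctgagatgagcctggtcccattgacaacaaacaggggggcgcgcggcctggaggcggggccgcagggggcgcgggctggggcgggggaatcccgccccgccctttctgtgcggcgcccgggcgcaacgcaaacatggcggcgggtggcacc

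DNA replication genes were also among those that rose. MCM2 to MCM7 form the helicase that is loaded at origins and unwinds DNA in S phase, PCNA is the sliding clamp of the polymerases, and FEN1 trims Okazaki fragments. Of 31 tested members 12 rose and 0 fell (38.7% called), 5 of them in batch b2 too, with a median log2 fold change of 0.38 (0.22 in batch b2 alone). FEN1 (ENSG00000168496, hg38 chromosome 11, 61792637 to 61797244) was at 41.9, 41.2 and 43.5 CPM in R175H P72 and at 79.5, 76.4, 60.8 and 63.9 CPM in R273H P72 (log2 0.96, SE 0.11, edgeR adjusted p = 1.96e-05). FEN1 overlaps FADS2 and TMEM258, whose reads could be counted with it. MCM3 was at 87.4, 64.7 and 75.6 CPM against 135, 141, 129 and 116 CPM (log2 0.91, SE 0.13, edgeR adjusted p = 9.93e-05). MCM4 was at 182, 147 and 165 CPM against 228, 272, 260.0 and 249.8 CPM (log2 0.63, SE 0.12, edgeR adjusted p = 0.00134). Neither FEN1, MCM3 nor MCM4 overlapped between the groups, whereas MCM2, at 105 to 141 CPM against 135 to 176 CPM, did (log2 0.56, SE 0.12).

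PCNA rose over all libraries (log2 0.75, SE 0.17) although its groups overlapped, at 31.7 to 47.4 CPM against 41.8 to 59.9 CPM, and it was called neither in batch b2 alone (edgeR adjusted p = 0.0660) nor without the batch term, where its log2 difference was 0.29 (edgeR adjusted p = 0.462). The other members that rose were MCM10, GINS2, RFC4, ORC6, GMNN, RPA3 and LIG1, at log2 0.38 to 0.68. The calls of GINS2, ORC6, RPA3 and LIG1 were lost without R273H P72 replicate 1 (edgeR adjusted p = 0.0598 to 0.205), those of RFC4, ORC6, GMNN, RPA3 and LIG1 without R175H R72 replicate 1 (edgeR adjusted p = 0.0644 to 0.198) and those of MCM2, ORC6, GMNN and RPA3 without the batch term (edgeR adjusted p = 0.0595 to 0.877). The counts of replication genes higher and lower were 9 and 0 without R273H P72 replicate 1, 7 and 0 without R175H R72 replicate 1 and 10 and 0 without the batch term. RRM1, the large subunit of the ribonucleotide reductase that makes deoxynucleotides, was at 156 to 188 CPM against 251 to 312 CPM (log2 0.83, SE 0.11, edgeR adjusted p = 7.66e-05); its list, nucleotide synthesis and salvage, had 3 higher and 3 lower of 30 (20% called). Of 29 mitosis genes 8 rose and 2 fell (34.5% called, 4 and 0 in batch b2 too, median 0.20), and with the GC trend removed 4 and 2; the counts were 5 and 2 without R273H P72 replicate 1, 5 and 1 without R175H R72 replicate 1 and 4 and 1 without the batch term. ANLN, the gene of anillin, which organises the cleavage furrow, was at 64.1, 52.1 and 74.3 CPM against 114, 93.96, 79.7 and 80.8 CPM (log2 0.96, SE 0.14, edgeR adjusted p = 0.000178). BUB1, a kinase of the spindle checkpoint, was at 64.2 to 68.9 CPM against 75.4 to 92.5 CPM (log2 0.58, SE 0.11), and UBE2C and AURKB were the members that fell (log2 -0.44, SE 0.09 and log2 -0.37, SE 0.10). The call of AURKB was lost without R175H R72 replicate 1 (edgeR adjusted p = 0.105) and those of ANLN, BUB1 and AURKB without the batch term (edgeR adjusted p = 0.109 to 0.544).

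The letters TTTCGCGC and TTTGGCGC of E2F sites, on either strand, were in the promoter windows of 9 of the 26 replication members with an entry and in 1.15% of all promoters. Members that were not called held matches too, MCM6, MCM7 and CDC6 among them. Of the 10 called members with an entry, only MCM2 and MCM3 held a match. Their windows, chr3:127598161-127598460 on the plus strand and chr6:52284693-52284992 on the minus strand, are shown because both genes rose over all libraries and in batch b2, and the capitals mark the matches, which overlap in MCM2.
MCM2: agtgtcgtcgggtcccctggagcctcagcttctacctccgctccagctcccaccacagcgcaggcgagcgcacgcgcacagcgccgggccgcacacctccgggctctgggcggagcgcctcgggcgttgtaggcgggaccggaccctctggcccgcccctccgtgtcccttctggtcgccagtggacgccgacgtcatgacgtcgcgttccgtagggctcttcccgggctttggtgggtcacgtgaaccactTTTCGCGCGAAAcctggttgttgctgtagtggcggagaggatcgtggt
MCM3: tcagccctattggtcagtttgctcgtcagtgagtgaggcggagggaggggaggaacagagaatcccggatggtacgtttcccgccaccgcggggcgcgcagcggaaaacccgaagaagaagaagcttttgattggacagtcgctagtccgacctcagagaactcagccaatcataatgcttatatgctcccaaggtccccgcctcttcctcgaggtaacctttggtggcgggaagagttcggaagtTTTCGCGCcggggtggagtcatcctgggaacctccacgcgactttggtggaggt

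Cytosolic ribosomal protein genes went the other way. Of 67 tested members 22 fell and 1, RPL7A, rose (34.3% called); 11 of those that fell did so in batch b2 too, and the median log2 fold change was -0.26 (-0.23 in batch b2 alone). RPS28 was at 819, 896 and 897 CPM in R175H P72 and at 607, 788, 754 and 759.9 CPM in R273H P72 (log2 -0.64, SE 0.10, edgeR adjusted p = 0.000317). RPL12 was at 529.6, 578 and 531 CPM against 361, 439.8, 459 and 467 CPM (log2 -0.53, SE 0.10, edgeR adjusted p = 0.000714). The calls of RPL7A and RPL12 were lost without R273H P72 replicate 1 (edgeR adjusted p = 0.496 and 0.0586) and those of RPL7A and RPS28 without the batch term (edgeR adjusted p = 0.998 and 0.279). The groups did not overlap for RPS28 or RPL12. With the GC trend removed 26 members were called lower, without R273H P72 replicate 1 15, and without R175H R72 replicate 1 15. On R72 in batch b2 the median was -0.01. Many ribosomal proteins have processed copies elsewhere in the genome, and these can take or lend reads.

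**Figure D4:**
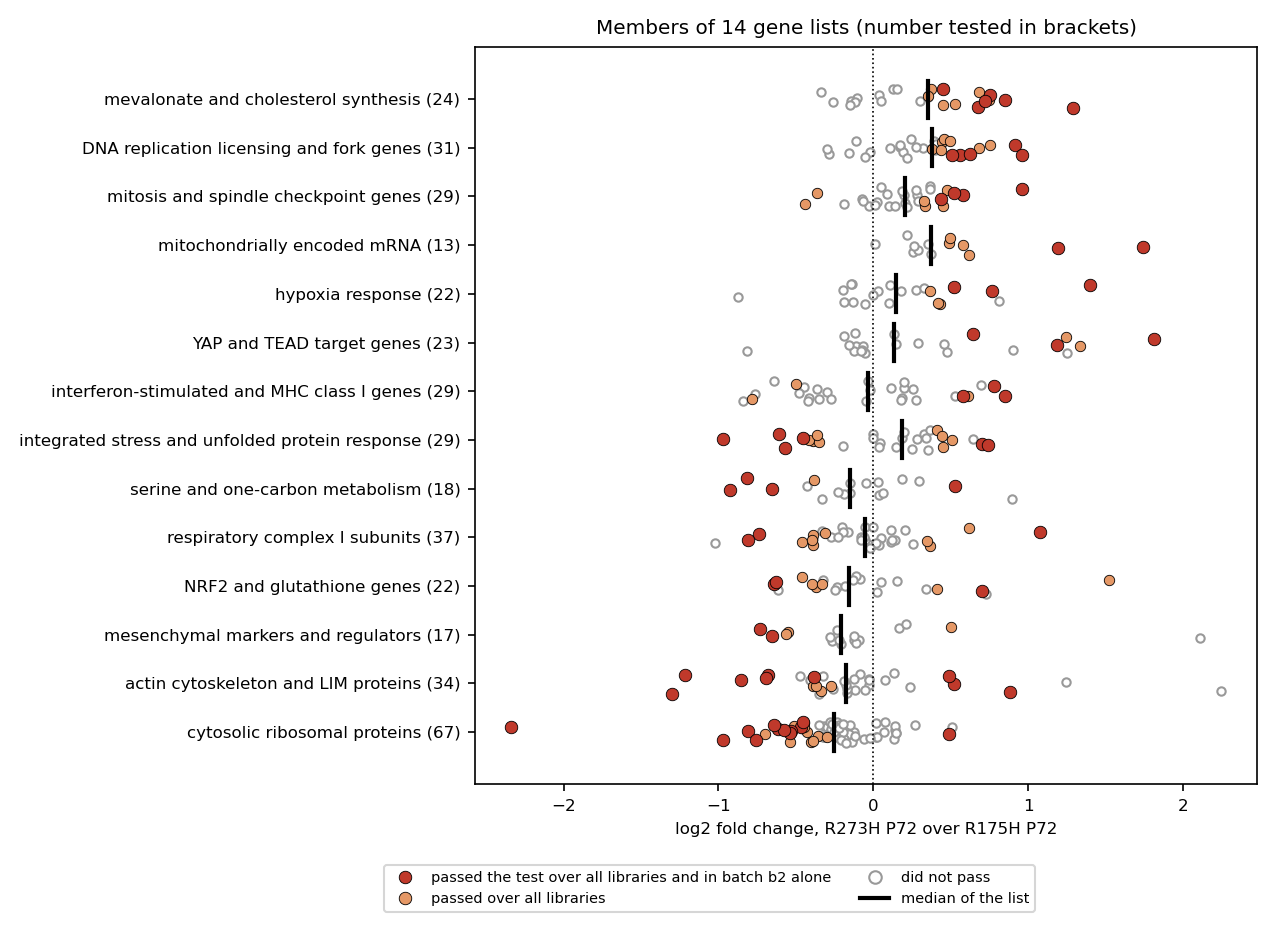
Log2 fold change of R273H P72 over R175H P72 (x axis) for each tested member of 14 gene lists (y axis, vertical scatter within a list has no meaning). Red points passed the test over all libraries and in batch b2 alone, orange points over all libraries, white points did not pass, and the bar is the median. The coloured points of cholesterol synthesis and of replication, 12 in each, all lie above 0, and of the coloured points of the ribosomal proteins 22 lie below 0 and 1 above.

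Genes of the integrated stress and unfolded protein responses split. In the integrated stress response the factor ATF4 raises genes of amino acid supply and of feedback, and in the unfolded protein response the endoplasmic reticulum gains chaperones. Of 29 tested members 6 rose and 8 fell (48.3% called, 2 and 4 in batch b2 too, median 0.19), and the counts were 3 and 3 without R273H P72 replicate 1, 2 and 5 without R175H R72 replicate 1 and 5 and 5 without the batch term. TRIB3 (ENSG00000101255, hg38 chromosome 20, 362835 to 397559), a pseudokinase induced by ATF4, was at 391, 386 and 363 CPM in R175H P72 and at 207, 215, 272 and 205 CPM in R273H P72 (log2 -0.97, SE 0.12, edgeR adjusted p = 7.19e-05). SESN2, which restrains mTORC1, was at 442, 445 and 431 CPM against 296, 383, 367 and 327 CPM (log2 -0.61, SE 0.10, edgeR adjusted p = 0.000471). DDIT4, another inhibitor of mTORC1 signalling, was at 492, 485 and 496 CPM against 352, 338, 351 and 359.8 CPM (log2 -0.57, SE 0.09, edgeR adjusted p = 0.000348). None of the 3 overlapped between the groups. PPP1R15A, DDIT3, ATF4, CEBPB and CHAC1 fell by less, at log2 -0.45 to -0.35. The calls of PPP1R15A, DDIT3, ATF4, CEBPB and CHAC1 were lost without R273H P72 replicate 1 (edgeR adjusted p = 0.0714 to 0.308), those of DDIT3, CEBPB and CHAC1 without R175H R72 replicate 1 (edgeR adjusted p = 0.0515 to 0.127) and those of DDIT3, ATF4 and CHAC1 without the batch term (edgeR adjusted p = 0.141 to 0.654).

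The members that rose were transporters and chaperones. SLC7A11, the cystine and glutamate exchanger, was at 152, 124 and 156 CPM in R175H P72 and at 233, 187, 208 and 183 CPM in R273H P72 (log2 0.70, SE 0.11, edgeR adjusted p = 0.000207). SLC7A5, a transporter of large neutral amino acids, was at 1579 to 2046 CPM against 2569 to 3914 CPM (log2 0.74, SE 0.17). The chaperone genes CALR, PDIA6, HSP90B1 and DNAJC3 rose by log2 0.41 to 0.51. The calls of SLC7A5, PDIA6 and HSP90B1 were lost without R273H P72 replicate 1 (edgeR adjusted p = 0.0554 to 0.125), those of SLC7A5, CALR, PDIA6 and DNAJC3 without R175H R72 replicate 1 (edgeR adjusted p = 0.0517 to 0.141) and those of HSP90B1 and DNAJC3 without the batch term (edgeR adjusted p = 0.392 and 0.202). Cytosolic chaperones had 7 higher and 5 lower of 29, 1 and 2 in batch b2 too (41.4% called), and 4 and 2 without R273H P72 replicate 1, 3 and 2 without R175H R72 replicate 1 and 5 and 4 without the batch term.

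Serine and one-carbon enzymes, which make glycine and folate-bound carbon units, had 4 members lower and 1 higher of 18 tested (27.8% called, 3 and 1 in batch b2 too, median -0.15). SHMT2 (ENSG00000182199, hg38 chromosome 12, 57229327 to 57234935), the mitochondrial serine hydroxymethyltransferase, was at 353, 391 and 342 CPM in R175H P72 and at 203, 217, 257 and 239 CPM in R273H P72 (log2 -0.92, SE 0.11, edgeR adjusted p = 1.83e-05). PHGDH, the first enzyme of serine synthesis, was at 69.6, 79.2 and 75.6 CPM against 47.5, 50.4, 59.5 and 56.02 CPM (log2 -0.65, SE 0.13, edgeR adjusted p = 0.00169). Both separated the groups, though the PHGDH call was lost without R273H P72 replicate 1 (edgeR adjusted p = 0.0524). ALDH1L2 and MTHFD2, folate enzymes of mitochondria, fell too (log2 -0.82, SE 0.19 and log2 -0.38, SE 0.09). MAT2A, which makes S-adenosylmethionine, was the member that rose, from 250.4 to 259 CPM to 326 to 373 CPM (log2 0.52, SE 0.10, edgeR adjusted p = 0.00117). The calls of ALDH1L2 and MTHFD2 were lost without R273H P72 replicate 1 (edgeR adjusted p = 0.0780 and 0.0607) and that of MTHFD2 without R175H R72 replicate 1 (edgeR adjusted p = 0.0573). The counts of these enzymes higher and lower were 1 and 1 without R273H P72 replicate 1, 1 and 3 without R175H R72 replicate 1 and 2 and 6 without the batch term.

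Of the 13 messenger RNAs of the mitochondrial genome 6 passed the test (46.2%), all higher, and 2 of them in batch b2 too (median 0.37, and 0.18 in batch b2 alone). Without R273H P72 replicate 1, 12 were called with a median of 0.78, and without R175H R72 replicate 1, 2 with a median of 0.18. MT-ND6, a complex I subunit read from the strand opposite to most mitochondrial genes, was at 118, 104 and 98.3 CPM in R175H P72 and at 311, 310.3, 249 and 179 CPM in R273H P72 (log2 1.74, SE 0.29, edgeR adjusted p = 0.00833). Its groups did not overlap, but without knowing the strand of counting its reads cannot be told from those of the other strand. MT-ATP8, which overlaps MT-ATP6, was at 207 to 259 CPM against 374 to 501 CPM (log2 1.19, SE 0.26), and its call was lost without R175H P72 replicate 2 or 4 (edgeR adjusted p = 0.0638 and 0.0666). MT-RNR1, the small ribosomal RNA of mitochondria, moved the other way, from 6086 to 7988 CPM to 3559 to 5279 CPM (log2 -0.91, SE 0.12, edgeR adjusted p = 6.35e-05). Mitochondrial genes took 4.03% to 4.46% of the counts in R175H P72 libraries and 4.27% to 4.67% in R273H P72 libraries. In the R72 libraries they took up to 5.52%.

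Of the 37 genes of complex I subunits, 4 rose and 7 fell (29.7% called, 1 and 2 in batch b2 too, median -0.05), and the counts were 2 and 6 without R273H P72 replicate 1, 2 and 3 without R175H R72 replicate 1 and 1 and 2 without the batch term. NDUFV1, the subunit that takes electrons from NADH, was at 76.9, 97.8 and 82.03 CPM in R175H P72 and at 50.9, 57.7, 75.2 and 65.4 CPM in R273H P72 (log2 -0.81, SE 0.13, edgeR adjusted p = 0.000229), a call lost without the batch term (edgeR adjusted p = 0.0576). NDUFB3 was called higher (log2 1.08, SE 0.17) although its groups overlapped, at 26.2, 27.8 and 28.9 CPM against 55.8, 17.4, 20.99 and 26.7 CPM, and without the batch term its log2 difference was 0.15 (edgeR adjusted p = 0.882). The list of PGC-1 coactivators and factors of mitochondrial biogenesis had 2 higher and 1 lower of 23 (13% called), 0 in batch b2, and 0 and 0 without R273H P72 replicate 1, 1 and 0 without R175H R72 replicate 1 and 2 and 2 without the batch term. PPARGC1A, the gene of PGC-1α, which the title of the series names, was at 3.43, 3.24 and 3.99 CPM in R175H P72 and 2.64, 3.05, 3.35 and 2.64 CPM in R273H P72 (log2 -0.38, SE 0.31, edgeR adjusted p = 0.459). These groups overlapped.

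YAP and TEAD targets are genes that the coactivator YAP and the DNA-binding TEAD factors raise when the Hippo kinases are inactive. Of 23 tested members 5 rose and 0 fell (21.7% called), 3 of them in batch b2 too, and the median was 0.13 (0.02 in batch b2 alone). The counts of targets higher and lower were 3 and 0 without R273H P72 replicate 1, 4 and 0 without R175H R72 replicate 1 and 4 and 1 without the batch term, and the median was -0.04 without R273H P72 replicate 1. Besides CYR61 those that rose were ANKRD1, CRIM1, F3 and NUAK2. ANKRD1, a nuclear ankyrin-repeat cofactor, was at 11.6, 11.5 and 13.1 CPM in R175H P72 and at 24.7, 40.6, 28.03 and 21.6 CPM in R273H P72, with no overlap (log2 1.18, SE 0.25, edgeR adjusted p = 0.00634). NUAK2, a kinase, was at 2.02, 1.53 and 2.13 CPM against 4.28, 3.17, 4.38 and 3.70 CPM (log2 1.24, SE 0.33, edgeR adjusted p = 0.0122). CRIM1, a membrane protein that binds BMPs, was at 193, 153 and 213 CPM against 284, 213, 190.1 and 181 CPM, with groups that overlapped (log2 0.64, SE 0.12, edgeR adjusted p = 0.00115), and without the batch term its log2 difference was 0.22 (edgeR adjusted p = 0.507). The calls of F3 and NUAK2 were lost without R273H P72 replicate 1 (edgeR adjusted p = 0.0879 and 0.124) and that of NUAK2 without R175H R72 replicate 1 (edgeR adjusted p = 0.0502). CTGF, another matricellular protein, was at 184, 126 and 203 CPM against 269, 302, 238 and 223 CPM and did not pass the test (log2 0.90, SE 0.28, edgeR adjusted p = 0.0816). On R72 in batch b2, 8 of 23 members were above 0.

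The TEAD core GGAATG, on either strand, was in the windows of 7 of the 19 members with an entry and in 14.0% of all promoters. Of the 3 called members with an entry, 2 held it: ANKRD1, chr10:90921038-90921337, and NUAK2, chr1:205321696-205321995, both on the minus strand. They are shown because they rose with CYR61, and the capitals mark the matches on either strand.
ANKRD1: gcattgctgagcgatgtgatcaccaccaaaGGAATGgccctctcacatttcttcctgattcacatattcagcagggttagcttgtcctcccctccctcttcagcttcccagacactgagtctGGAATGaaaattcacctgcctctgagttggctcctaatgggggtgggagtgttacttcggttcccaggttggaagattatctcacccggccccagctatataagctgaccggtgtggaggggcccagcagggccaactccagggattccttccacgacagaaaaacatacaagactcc
NUAK2: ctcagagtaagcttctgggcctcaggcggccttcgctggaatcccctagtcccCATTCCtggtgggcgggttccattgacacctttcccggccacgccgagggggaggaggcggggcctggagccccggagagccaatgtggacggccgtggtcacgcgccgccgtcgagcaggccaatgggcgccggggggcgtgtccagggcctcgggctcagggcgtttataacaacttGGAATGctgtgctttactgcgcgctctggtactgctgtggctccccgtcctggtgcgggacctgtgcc

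Hippo pathway components had 4 members lower and 0 higher of 17 (23.5% called, 1 lower in batch b2 too, median -0.12), among them the kinase gene STK4 at 199 to 225 CPM against 148 to 182 CPM (log2 -0.57, SE 0.10, edgeR adjusted p = 0.000744), a call lost without the batch term (edgeR adjusted p = 0.0534). Without R175H R72 replicate 1, 1 Hippo component was called lower. In the list of actin cytoskeleton and LIM proteins 10 fell and 3 rose of 34 (38.2% called, 6 and 3 in batch b2 too, median -0.17), and higher and lower counts were 1 and 8 without R273H P72 replicate 1, 3 and 7 without R175H R72 replicate 1 and 3 and 8 without the batch term. FHL1, a scaffold of LIM domains, was at 75.4, 82.9 and 74.6 CPM in R175H P72 and at 52.3, 41.6, 45.7 and 52.6 CPM in R273H P72 (log2 -0.70, SE 0.12, edgeR adjusted p = 0.000471). ZYX, the focal adhesion protein zyxin, was at 87.8 to 94.3 CPM against 52.3 to 64.7 CPM (log2 -0.68, SE 0.12). CSRP1, a LIM protein that binds actin bundles, was at 24.3 to 29.6 CPM against 14.8 to 17.1 CPM (log2 -0.85, SE 0.15). CALD1, the gene of caldesmon, rose from 15.1 to 19.8 CPM to 26.5 to 34.7 CPM (log2 0.88, SE 0.15, edgeR adjusted p = 0.000636), and PDLIM5 and LIMA1 were the others that rose. The calls of PDLIM5 and LIMA1 were lost without R273H P72 replicate 1 (edgeR adjusted p = 0.130 and 0.0955) and that of LIMA1 without the batch term (edgeR adjusted p = 0.768).

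Mesenchymal genes had 4 members lower and 1 higher of 17 (29.4% called, 2 lower in batch b2 too, median -0.21), and epithelial genes had 0 called of 8 tested (0%). VIM, the intermediate filament vimentin, was at 1423, 1600.1 and 1827 CPM in R175H P72 and at 1088, 755, 793 and 893 CPM in R273H P72 (log2 -0.65, SE 0.12, edgeR adjusted p = 0.00129). LGALS1, the lectin galectin-1, was at 381 to 448 CPM against 266 to 316 CPM (log2 -0.73, SE 0.12). ZEB1 and TWIST1, repressors of epithelial genes, fell (log2 -0.55, SE 0.13 and log2 -0.56, SE 0.17), while CDH2, N-cadherin, rose (log2 0.50, SE 0.11). Matrix, integrin and protease genes split 6 higher to 6 lower of 31 (38.7% called), and 6 and 2 without R273H P72 replicate 1, 3 and 4 without R175H R72 replicate 1 and 4 and 3 without the batch term. The integrin gene ITGB5 rose (log2 0.55, SE 0.10), and ITGA3 (log2 -0.53, SE 0.09) and the collagen gene COL6A1 (log2 -0.69, SE 0.12) fell. The groups did not overlap for VIM or FHL1. The calls of ZEB1 and TWIST1 were lost without R273H P72 replicate 1 (edgeR adjusted p = 0.0964 and 0.237), that of TWIST1 without R175H R72 replicate 1 (edgeR adjusted p = 0.110) and those of TWIST1, ITGA3 and COL6A1 without the batch term (edgeR adjusted p = 0.0948 to 0.120). Mesenchymal genes higher and lower numbered 1 and 2 without R273H P72 replicate 1, 1 and 3 without R175H R72 replicate 1 and 1 and 3 without the batch term.

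Interferon-stimulated and MHC class I genes had 4 higher and 2 lower of 29 (20.7% called, 3 and 0 in batch b2 too, median -0.03), and those higher all serve antigen presentation. B2M, the light chain of MHC class I, was at 1297, 1045 and 1182 CPM in R175H P72 and at 1863, 1884, 1778 and 1687 CPM in R273H P72 (log2 0.85, SE 0.14, edgeR adjusted p = 0.000717). TAP2, a subunit of the peptide transporter, was at 249 to 284 CPM against 387 to 499 CPM (log2 0.78, SE 0.12, edgeR adjusted p = 0.000277), and HLA-C and HLA-E were the others. ISG15 and STAT2 fell. The calls of HLA-C and STAT2 were lost without R273H P72 replicate 1 (edgeR adjusted p = 0.118 and 0.155), those of HLA-E, ISG15 and STAT2 without R175H R72 replicate 1 (edgeR adjusted p = 0.0593 to 0.0902) and those of HLA-C, ISG15 and STAT2 without the batch term (edgeR adjusted p = 0.247 to 0.793). The counts of interferon and MHC genes higher and lower were 3 and 3 without R273H P72 replicate 1, 3 and 0 without R175H R72 replicate 1 and 4 and 0 without the batch term. Hypoxia genes had 6 higher and 0 lower of 22 (27.3% called, 3 in batch b2 too), and 1 and 0 without R273H P72 replicate 1, 4 and 0 without R175H R72 replicate 1 and 4 and 2 without the batch term.

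NRF2 and glutathione genes had 3 higher and 6 lower of 22 (40.9% called), and 1 and 4 without R273H P72 replicate 1, 1 and 4 without R175H R72 replicate 1 and 2 and 4 without the batch term, with FTL, the ferritin light chain, at 348 to 372 CPM against 247 to 290.3 CPM (log2 -0.64, SE 0.10, edgeR adjusted p = 0.000207). Glycolysis had 3 higher and 5 lower of 21 (38.1% called), and 1 and 5 without R273H P72 replicate 1, 3 and 3 without R175H R72 replicate 1 and 3 and 0 without the batch term, with GAPDH at 5501 to 6001 CPM against 3491 to 5055 CPM (log2 -0.65, SE 0.11, edgeR adjusted p = 0.000345) and the lactate transporter gene SLC16A1 higher (log2 0.58, SE 0.11). The call of GAPDH was lost without the batch term (edgeR adjusted p = 0.0726). The lists for TGF-beta signalling (2 higher, 1 lower of 24, 12.5% called), NF-kB (2 and 0 of 19, 10.5%), immediate early genes (3 and 1 of 29, 13.8%) and mitochondrial ribosomal proteins (1 and 2 of 44, 6.8%) held calls below the share of all genes. In that order they had, without R273H P72 replicate 1, 1 and 1, 1 and 0, 0 and 1 and 0 and 2, and without R175H R72 replicate 1 2 and 0, 0 and 0, 3 and 1 and 0 and 2. DUSP1, an immediate early phosphatase, was at 21.4 to 33.5 CPM against 9.23 to 14.2 CPM (log2 -0.96, SE 0.20, edgeR adjusted p = 0.00257). In batch b2 alone its log2 difference was -0.85, and it was not called there.

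Canonical p53 targets had 0 higher and 2 lower of 27 (7.4% called), SESN2 and BBC3, with a median of -0.05. The BBC3 call was lost in 6 of 11 fits that left out 1 library. CDKN1A, the cell cycle inhibitor p21, was at 27.1, 29.99 and 31.7 CPM in R175H P72 and at 24.1, 26.6, 26.1 and 29.3 CPM in R273H P72 (log2 -0.32, SE 0.13, edgeR adjusted p = 0.0978). MDM2, the ubiquitin ligase of p53, was at 47.5, 45.6 and 49.04 CPM against 48.6, 47.5, 46.3 and 47.7 CPM (log2 0.03, SE 0.11, edgeR adjusted p = 0.906). The groups overlapped for both CDKN1A and MDM2. Of 22 genes reported as gain-of-function targets of mutant p53, 4 were higher and 3 lower (31.8% called), and 1 and 0 without R273H P72 replicate 1, 2 and 1 without R175H R72 replicate 1 and 3 and 2 without the batch term. ABCB1, a drug efflux pump, was at 13.7 to 15.96 CPM against 23.02 to 35.4 CPM (log2 0.66, SE 0.15), and BCL2L1, an inhibitor of apoptosis, at 45.8 to 56.04 CPM against 31.7 to 40.7 CPM (log2 -0.70, SE 0.14). Both calls were lost without R273H P72 replicate 1 (edgeR adjusted p = 0.0597 and 0.0745).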

How the data were processed

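RNA of 11 H1299 libraries was read from its 3′ end (QuantSeq) as single reads of 75 bp, per the labels. The deposited values are estimated counts per gene, whole numbers in the table; the authors' tools were Bowtie2, RSEM 1.2.12 and DESeq2 on hg38, per the submitters' processing notes. No source used here says if counting was stranded. Groups and batches came from the labels. Of 45965 genes in the table, filterByExpr on the 4 groups left 16324. edgeR 4.0.16 in R 4.3.3 fitted groups and batch over all 11 libraries by robust quasi-likelihood with TMM scaling, and Benjamini-Hochberg adjustment ran over every gene tested (threshold 0.05). At 10 CPM or more the median SE was 0.128; replicate pairs differed beyond sampling noise (chi-square per degree of freedom 4.01 to 18.3).

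The members and the 29 gene lists and 8 marker lists were chosen with earlier results of these data known, and lists were described, not tested. Named genes were 4 fixed ones, the 12 highest and 12 lowest (called over all libraries and in batch b2, without overlap, at 10 CPM or more), and up to 3 a list; other genes, and the motifs other than the TEAD core, were named after their values were seen. Gene positions came from GENCODE 29, which holds 42551 of the IDs. GC content was that of the last 500 nt, removed with a spline of 5 degrees of freedom. On simulated counts for the P72 comparison (15935 genes, 200 changed) the procedure recovered 67% of 1.5-fold and 98% of 2-fold changes, with 13 false among 178 calls. The simulated counts held a batch difference and the planted changes, but no GC trend and no split within batch b2. The rates therefore need not hold for the real libraries. Alternatives, limma 3.58.1 and DESeq2 1.42.0 among them, are given with their effects at the end. Some genes that these rules name are not reported here.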

Additional observations from a re-analysis of the deposited data

Results flagged for a closer look

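Within R273H P72, 1 library stood apart from the other 3 for 5 of the 100 named genes, and chance alone marks about 1 in 20. SRF, a transcription factor of cytoskeletal genes, was high in replicate 1, at 125.8 CPM against 95.5 to 98.9 CPM in the others, and without that library its log2 difference was 0.13 (edgeR adjusted p = 0.678). STK4, at 148.5 CPM against 176 to 182 CPM, and RPS28, at 606.7 CPM against 754 to 788 CPM, were low in replicate 1. EEF1A2 was high in replicate 4, at 57.92 CPM against 44.5 to 45.6 CPM. UPP1 was high in replicate 3, at 104 CPM against 78.5 to 80.3 CPM.

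For 5 genes the test of the difference between the hotspot effects on R72 and on P72 passed. The difference, R72 minus P72 on the log2 scale, was 1.077 for MAF1 (SE 0.18, edgeR adjusted p = 0.0320) and 0.9846 for SNHG25 (SE 0.16, edgeR adjusted p = 0.0320). It was -1.28 for SMIM11B (SE 0.23, edgeR adjusted p = 0.0432) and -1.01 for TUBA1B (SE 0.18, edgeR adjusted p = 0.0384). For TRPM8, a cold-sensing ion channel, it was -4.383 (SE 0.63, edgeR adjusted p = 0.0101), with 8.47 to 9.14 CPM in R175H R72 and 0.403 to 1.99 CPM in the other libraries. With the GC trend removed TRPM8 alone passed, and the others were at an edgeR adjusted p of 0.0728.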

How the results depend on the processing

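On P72 the counts of genes higher and lower were 1135 and 1241. In batch b2 alone they were 419 and 447, and with the GC trend removed as well, a setting added after seeing the data, 306 and 339; both leave 7 libraries. The 7 P72 libraries alone gave 809 and 643. With the replicate number as a block they were 842 and 934; the numbers do not pair the samples (correlations of deviations -0.05, -0.03 and 0.12 for replicates 1, 2 and 4). Other scaling (RLE, totals), other filters (none, 10 CPM in 3 libraries), DESeq2, limma-voom, no batch term and GC trend removal gave 968 to 1423 higher and 1070 to 1275 lower, but without the batch term 58.0% of the calls were shared. With 1 library left out in turn, 544 (without R273H P72 replicate 1) to 1178 were higher and 612 (without R175H R72 replicate 1) to 1285 lower.

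On R72 7 genes were called, 16 with no filter, 14 with DESeq2, 2 at 10 CPM, 2 with the replicate block, 3 with limma-voom and 3 without the batch term, and 3 to 9 with 1 library left out. For the difference 5 were called, 196 with no filter, 138 with DESeq2, 1 without the batch term, 1 with the GC trend removed, 2 with the block, and 0 to 48 with 1 library left out. MDM2, not called, changed sign with the GC trend removed (-0.0382), in batch b2 with it removed (-0.0164) and with 1 library left out (-0.0159 and -0.00106 without R175H R72 replicate 4 or R175H P72 replicate 2, and up to 0.0607 otherwise). POLG2 changed sign without the batch term (-0.0367). The cause of these changes was not tested. Over the 100 named genes and all settings, 2085 values stayed on their side of the threshold, 202 lost the call and 5 changed sign. Most named genes were chosen because they passed the main fit, many of them in batch b2 too, so these counts do not describe the calls at large. Of all calls on P72, 45.2% were shared without R273H P72 replicate 1 and 49.2% without R175H R72 replicate 1. Median GC content was 44.2% for the higher calls, 54.8% for the lower and 46.2% for all genes. With the trend removed it was 46.5% for the higher and 49.8% for the lower. In batch b2 alone with the trend removed, MCM4 was at log2 0.41, BUB1 at 0.41, MAT2A at 0.39, CYR61 at 1.49 and DDIT4 at -0.36. These were among the named genes not called there, while others, such as FEN1, NEO1 and HBD, were called.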
